A study of Arabidopsis thaliana with 16 samples.

Results

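The regions described here are stretches of the Arabidopsis thaliana genome at which ENAP1 gave a peak in Col-0 seedlings treated with ethylene and in no other condition examined. There are 500 of them, out of 8966 regions found in any of 4 peak sets. They were chosen from the peaks themselves: the 4 sets were pooled on chromosomes 1 to 5, peaks that overlapped by at least 1 bp were merged, and merged regions holding only Col-0 ethylene peaks were kept. A stretch of chromosome 2 whose regions lie between 3188514 and 3509759 was left out, which removed 40 further regions with the same pattern. Absence from the other sets is therefore the rule, not a finding.

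ENAP1 was mapped by chromatin immunoprecipitation followed by sequencing (ChIP-seq), with an antibody to green fluorescent protein. Whole seedlings, 3 days old and raised without light at 24 °C, then spent 4 hours in hydrocarbon-free air or in such air with ethylene at 10 ppm. Col-0 is the wild-type accession, and ein2 is a line that lacks the ethylene response, whose allele the labels do not name. Each combination of line and treatment had 2 ChIP and 2 input samples, 16 samples in all, and 1 peak set was deposited per combination. No value below therefore has a spread between replicates, and conditions were not tested against each other. The labels do not describe the tagged ENAP1 line, and no ChIP from plants without the tag is among the samples. In the names of the peak sets, the ChIP libraries of both air conditions carry plain numbers and those of both ethylene conditions numbers with a C. What that marks is not given, and it cannot be told apart from the treatment.

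ENAP1 is a nuclear protein of the trihelix type that binds EIN2. Ethylene receptors act through the kinase CTR1 to hold EIN2 inactive at the endoplasmic reticulum. When ethylene is bound, the carboxy-terminal part of EIN2 moves to the nucleus, where it raises histone acetylation and the output of the transcription factors EIN3 and EIL1. In dark-grown seedlings the hormone shortens the hypocotyl and root and tightens the apical hook.

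The 500 regions were among the weaker ones of their own set. Fold enrichment here is the authors' ratio of ChIP signal to local background at the summit of the peak. Its median was 3.20 in the 500 regions (lower quartile 2.94, highest 5.33), beside 3.89 in the other 4596 Col-0 ethylene regions. The median −log10 q was 13.1, beside 23.5, and the median width was 245.5 bp, beside 329 bp. Of all Col-0 ethylene regions outside the left-out stretch, 9.81% belonged to the 500. This share was 19.2% in the decile of lowest fold, 12.2% in the fifth and 0% in the highest decile, which spans folds of 5.90 to 17. These values took part in choosing the regions and are given as a description.

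**Figure D1:**
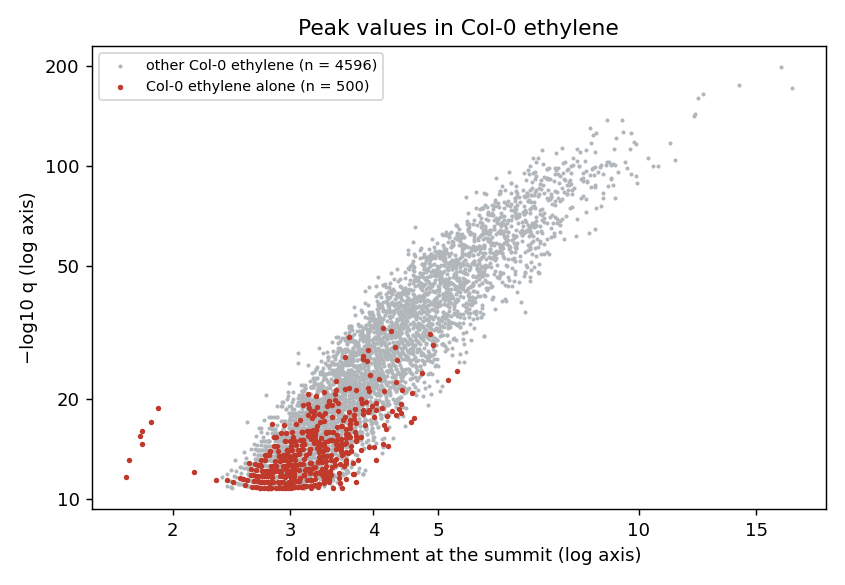
Fold enrichment at the summit (horizontal, log axis) and −log10 q (vertical, log axis) of each Col-0 ethylene peak outside the left-out stretch of chromosome 2. The 500 regions found in Col-0 ethylene alone (red) reach a fold of 5.33, and 7 of them form a separate group at folds under 2, where 2 other regions of equal fold and q are hidden behind a red point.

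The authors' selection matters for what "alone" means. The lowest −log10 q kept was 10.8 in Col-0 ethylene and 13.4 in Col-0 air. Of the 500 regions, 259 (51.8%, Wilson 95% interval 47.4 to 56.1) had a value below 13.4, so a Col-0 air peak of the same q would not be in the deposited set. The peak numbers in the files also run to 12046 in Col-0 ethylene and 18877 in Col-0 air, of which 42.6% and 41.6% are held. A weaker Col-0 air peak at these places can therefore not be told apart from none. Of the 500, 241 met the stricter value.

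Gaps between the 500 regions and those of other sets are given as a description. The rule had removed every overlap, and no baseline was set beside the gaps. The median gap to the nearest region of another set was 3725 bp, with quartiles of 1767 and 7592 bp, and 422 regions (84.4%) lay over 1000 bp away. The nearest region belonged to Col-0 air for 386, to ein2 ethylene for 91 and to ein2 air for 23. Only 15 regions (3.00%) had a gap of 200 bp or less. The narrowest case was in AT5G03140, where a region of 1061 bp (chromosome 5, 739176 to 740236, fold 2.95) began at the base after a Col-0 air region of fold 2.72 ended. The next were near AT3G03150, with a gap of 57 bp to an ein2 ethylene region, and in PR4 (AT3G04720), with 60 bp. PR4 encodes a hevein-like pathogenesis-related protein and is widely used as a marker of ethylene and jasmonate responses. Its region had a fold of 4.42 (chromosome 3, 1286182 to 1286732), and Col-0 air, ein2 air and ein2 ethylene each had a region within reach of the same gene. On the other side of the rule, no Col-0 ethylene region was joined to another set by 50 bp or less. The smallest overlaps were 82 bp at pde191, 86 bp at AT1G77765 and 91 bp at AT2G45670.

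**Figure D2:**
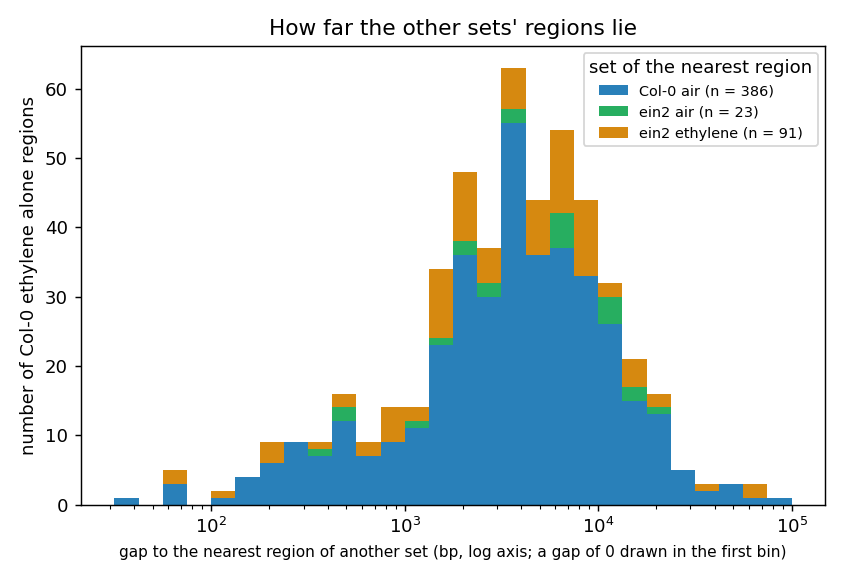
Number of the 500 regions by the gap in bp to the nearest region of another set (log axis), stacked by the set that holds this nearest region. The median gap was 3725 bp, and Col-0 air held the nearest region for 386 of the 500.

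The summits of the 500 regions lay deeper inside genes than those of other Col-0 ethylene regions. Gene position was not part of the rule. Because the gene table lacks strand, both ends of a gene were treated alike and called edges. In the 500, 115 summits (23%, Wilson 95% interval 19.5 to 26.9) were inside a protein-coding gene and over 300 bp from every gene edge, against 17.5% (16.5 to 18.7) in the other Col-0 ethylene regions. The difference was 5.46 percentage points (Newcombe 95% interval 1.81 to 9.49). Over 500 bp from every edge lay 13% against 8.83%, a difference of 4.17 points (1.36 to 7.49). All of these intervals cover the counting error over regions of 1 peak set, not the spread between plants.

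Fewer of the 500 summits lay near a gene edge. Within 300 bp of an edge were 308 (61.6%, interval 57.3 to 65.8), against 74.6% in the other Col-0 ethylene regions, which is a difference of -13.0 points (-17.5 to -8.68). Inside a protein-coding gene were 63.2% against 75.9%, and over 1000 bp from any such gene 8.40% against 3.57%. Because the 500 are weak, they were also set beside the 1173 other Col-0 ethylene regions with a −log10 q up to 15.7, the upper quartile of the 500. This comparison was added after seeing the data. All 500 were kept in it, with −log10 q values up to 32.6, so the groups compared are not matched in q. Beside these weak regions the share near an edge was still lower, by -13.8 points (-18.8 to -8.97), and the share deep inside genes higher, by 9.79 points (5.75 to 14.1). The share inside a gene of any depth then differed by -1.16 points, with an interval from -6.25 to 3.80 that includes 0. Classes of −log10 q were then set at under 12, 12 to 14, 14 to 17, and 17 or more. Within these 4 classes the share deep inside genes was 18.1%, 21.2%, 23.3% and 34.1% in the 500, from weakest to strongest. In the other Col-0 ethylene regions it was 13.8%, 13.5%, 15.1% and 19%. The share inside a gene of any depth was 57.4%, 63.5%, 65.8% and 69.3% in the 500 in these classes. In the other Col-0 ethylene regions that share was 61.5%, 63.2%, 70.6% and 80.3%, so the strongest class differed most. That class is not matched in q. It held 88 of the 500, with −log10 q values up to 32.6, and 3187 other regions, with values up to 198.

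**Figure D3:**
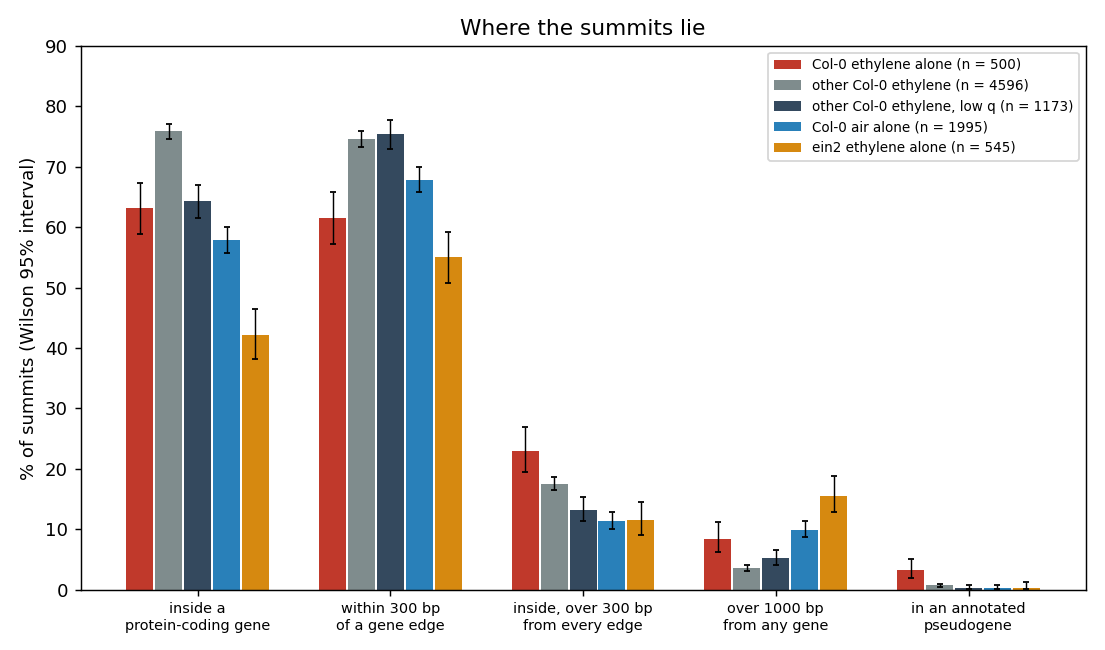
Share of summits (%, with Wilson 95% intervals) in 5 positions relative to annotated genes, for the regions of Col-0 ethylene alone, the other Col-0 ethylene regions, those of them with a −log10 q up to 15.7 ("low q"), and the regions of Col-0 air alone and ein2 ethylene alone. The regions of Col-0 ethylene alone have the highest share inside a gene over 300 bp from every edge, at 23%, and in pseudogenes, at 3.20%.

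Regions found in 1 set alone were not all placed like this. Of the 1995 regions of Col-0 air alone, 11.3% had a summit inside a gene over 300 bp from every edge (10.0 to 12.8), and of the 545 of ein2 ethylene alone 11.6% (9.14 to 14.5). The 500 exceeded these by 11.7 points (7.90 to 15.8) and 11.4 points (6.88 to 16). Inside a protein-coding gene were 63.2% of the 500, 57.9% of those in Col-0 air alone and 42.2% of those in ein2 ethylene alone. The median length of the gene that held a summit was 2178 bp for the 500 and 2464 bp for the other Col-0 ethylene regions. The 4 sets differ in their lowest q, which bears on every comparison between them.

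**Figure D4:**
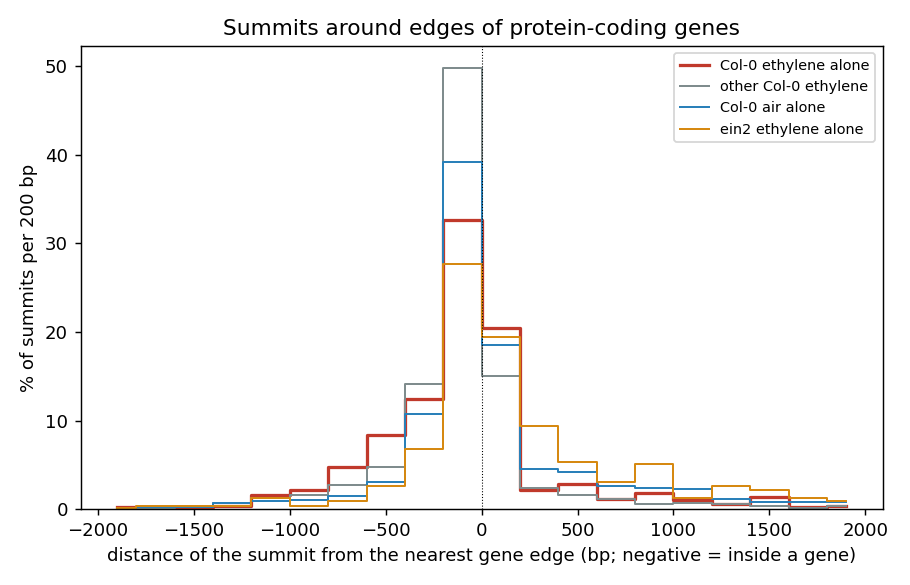
Share of summits (% per 200 bp) by distance in bp from the nearest edge of a protein-coding gene, with negative values inside a gene. The first 200 bp inside an edge held 32.6% of the 500 summits and 49.8% of those of other Col-0 ethylene regions, while from 400 to 600 bp inside the shares were 8.40% and 4.72%.

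Annotated pseudogenes held 16 of the 500 summits (3.20%, interval 1.98 to 5.13), against 0.718% in the other Col-0 ethylene regions, a difference of 2.48 points (1.23 to 4.43). Of the 16, 5 are neighbours at 1 locus on chromosome 3, so the interval is too narrow. With pseudogene regions within 5000 bp of each other counted once in both groups, the shares were 2.42% and 0.632%, a difference of 1.79 points (0.722 to 3.56). With regions of fold under 2 left out of both groups, they were 2.03% and 0.697%, a difference of 1.33 points (0.366 to 3.01). Both of these counts were added after seeing the data. The 2 regions of highest fold were among them. One lay in AT3G17050 (chromosome 3, 5814729 to 5815051, fold 5.33) and the other in AT2G18115 (chromosome 2, 7874755 to 7875023, fold 5.18). The region in AT2G10735 (chromosome 2, 4224047 to 4224483) had a fold of 4.40. Another 6 pseudogene regions were part of a small group that stood apart in its values, with folds under 2 but −log10 q values of 11.6 to 18.8. Of these, 5 lay side by side on chromosome 3 between 13536991 and 13541507, in AT3G33000, AT3G33002 and AT3G33004, with folds from 1.70 to 1.86. The other lay in AT4G08340. The 1 region with a fold under 2 outside a pseudogene was in UBQ13, a polyubiquitin gene, with a fold of 1.72. In the other 4596 Col-0 ethylene regions, 2 had a fold under 2.

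The gene of a region was taken as the protein-coding gene holding its summit, or otherwise the nearest within 1000 bp. By this definition 458 of the 500 regions belonged to 453 genes. For 321 of these genes (70.9%, interval 66.5 to 74.9) no region of Col-0 air, ein2 air or ein2 ethylene lay in the gene or within 1000 bp of it. At least 1 of those 3 sets had a region at 29.1% of the 453, beside 37.5% of all 27444 protein-coding genes. Another Col-0 ethylene region was present at 87 (19.2%), beside 25.9% of all genes with any Col-0 ethylene region. Col-0 air had a region at 27.6% of the 453, beside 35.5% of all genes. For ein2 ethylene these shares were 16.8% and 22.4%, and for ein2 air 11.9% and 16.9%. The rule left out regions that overlap those of other sets, so nothing is read from these shares. Genes with 2 of the regions numbered 5, namely IQD18, PME3, AT4G02100, AT5G14820 and AT5G46080.

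The 20 regions of highest fold reached folds of up to 5.33. Of these, 17 lay over 1000 bp from any region of another set, beside 84.4% of all 500. All 20 met the Col-0 air minimum of −log10 q, with a lowest value of 14.4, beside 48.2% of all 500. The 20 were ranked by fold, a value of the same peaks, so nothing is read from this. In 13 of the 20 the summit was inside a protein-coding gene, beside 63.2% of all 500. RUP1 (AT5G52250), which restrains the UV-B photoreceptor UVR8, had a fold of 4.92. Next were AT2G36240 with 4.86, the ubiquitin protease gene UBP23 (AT5G57990) with 4.72 and AT5G14820 with 4.60. The UBP23 region lay 288 bp from a Col-0 air region of fold 4.09. In the pectin methylesterase gene PME3 (AT3G14310) the fold was 4.58 in one region and 3.71 in the other. Both UBP23 and PME3 also had regions of Col-0 air and further ones of Col-0 ethylene at the gene. The gene BB (AT3G63530, BIG BROTHER), whose ubiquitin ligase limits organ size, had a fold of 4.33, and the nearest region of another set was 46329 bp away. AT2G40130 (SMXL8), of the family that represses strigolactone responses, had a fold of 4.34. The splicing factor gene SUS2 (AT1G80070) had 4.26 and the cytochrome P450 gene CYP77B1 (AT1G11600) had the lowest of the 20. AT4G11430, AT5G59770, AT5G65400 and AT2G05580 had folds of 4.40, 4.37, 4.31 and 4.21. At AT2G40130 and AT5G65400 there was also an ein2 ethylene region. Of the 20, 3 regions lay over 1000 bp from any protein-coding gene and had their nearest ones at AT5G28370, AT2G10615 and MYB56, in addition to the one in AT3G17050. The one nearest AT2G10615 is the pseudogene region in AT2G10735, which was also the farthest from any other set, with a gap of 78743 bp, followed by those of AT2G11035, AT1G66130 and the fibrillin gene FIB. The widest were those in AT5G03140, in the NAC transcription factor gene ATAF1 (842 bp, fold 4.04), in the pseudogene AT3G33002 (834 bp), in NCED6 (808 bp) and near AT1G62050 (784 bp).

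Gene lists were counted with a wider reach, the gene span with 1000 bp on both sides. By this measure 738 of 27444 protein-coding genes (2.69%) had one of the 500 regions. None of 15 ethylene signalling genes, 13 ethylene-induced genes or 17 histone acetylation genes was among them. At these list sizes a count of 0 allows shares of up to 20%, 23.1% and 17.6%, so that no difference from 2.69% was detectable. These lists did have Col-0 ethylene regions outside the 500, at 6, 1 and 9 genes, beside 25.9% of all genes with any Col-0 ethylene region. Col-0 air had regions at 12, 8 and 11 genes of these lists, beside 35.5% of all genes. For ein2 ethylene there were 8, 7 and 6, beside 22.4%, and for ein2 air 6, 2 and 5, beside 16.9%. The ethylene biosynthesis list had 1 of 15, the circadian clock list 1 of 20, the light-harvesting list 1 of 15, the light signalling list 2 of 20 and the gibberellin list 2 of 14. Over all 8 lists 7 of 124 genes (5.65%) had one. Among families taken by gene symbol, 11 of 229 cytochrome P450 genes (4.80%), 5 of 82 NAC genes (6.10%) and 4 of 123 MYB genes (3.25%) had a region, and 0 of 67 WRKY genes, which allows up to 4.48%. None of 24 ERF, 24 IAA, 23 EXPA, 16 SAUR or 13 BHLH genes had one, which allows up to 12.5% to 23.1%. The UGT, XTH, GSTU, LHC and PRR families had 1 gene each, of 58, 30, 27, 15 and 6. Of 326 microRNA genes 4 had one. Genes whose symbol lacks the family prefix were not counted, such as ATAF1 and RD26 for NAC or EXP3 for the expansins. The histone acetylation list likewise lacks ADA2B and the histone deacetylase gene HD2C, which each had one of the 500 regions. These counts are small, and nothing particular to a list or family is read from them.

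Both gibberellin genes with such a region encode enzymes that make active gibberellin, the hormone that promotes elongation. In GA3OX2 (AT1G80340), the enzyme of the last step, the region (chromosome 1, 30200874 to 30201176) had a fold of 4.13. Its −log10 q of 32.6 was the highest of all 500. In GA20OX2 (AT5G51810), of the step before, the region (chromosome 5, 21056044 to 21056199) had a fold of 3.41. Its −log10 q was 11.6, below the Col-0 air minimum. No other region of any set lay at either gene, and the nearest ones were 5767 and 15463 bp away. ACS2 (AT1G01480), for an enzyme that makes the ethylene precursor, had a region within 1000 bp with a fold of 3.36 and a −log10 q of 11.7. Col-0 air also had a region at ACS2. The nearest Col-0 air region, of fold 3.21, lay 2081 bp from that of Col-0 ethylene.

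Light regulators and the clock gave 4 genes. The RUP1 region (chromosome 5, 21217436 to 21218099) had a −log10 q of 29, and the nearest region of another set was 5711 bp away. HB-2 (AT4G16780, also ATHB-2), a homeobox gene of the shade response, was singled out by its fold of 4.33, and Col-0 air had a region 1047 bp away with a fold of 4.04. PIF4 (AT2G43010), which promotes growth in darkness and warmth, had a region of fold 3.39 inside the gene (chromosome 2, 17888455 to 17888599), only 70 bp from a Col-0 air region of fold 3.67. Its −log10 q was 12.6, so this case is weak and lies beside an existing region. PRR9 (AT2G46790), a repressor within the clock, had a region just outside the gene with a fold of 3.26 and no region of another set within 1000 bp. The light-harvesting gene LHCB4.1 (AT5G01530) had one inside the gene with a fold of 3.01 and a −log10 q of 14.5, and the nearest Col-0 air region was 3739 bp away.

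Further genes were grouped by role after their values were seen, so their number is no evidence of a theme. With the hormone and light genes above other than LHCB4.1, they make 44 genes with 45 regions, of which 28 genes had no other region of any set and 20 regions met the Col-0 air minimum of −log10 q. In 35 of the 45 the summit was inside the gene. Of all 500 regions, 316 (63.2%) had the summit inside a protein-coding gene and 241 (48.2%) met the minimum. Regions over 1000 bp from any gene could not enter the role groups, and nothing is read from these counts. The 20 regions that met the minimum were those of GA3OX2, NCED5, CYP90D1, BEE3, CYP94C1, ARF19, ETT, ARF9, LAX3, RUP1, HB-2, PRR9, 4CL2, IRX12, XTH33, GALS2, CHR11 and DRM3, and both of PME3.

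For abscisic acid, the synthesis genes NCED5 (AT1G30100) and NCED6 (AT3G24220) had folds of 3.68 and 2.62. NCED5 also had regions in Col-0 air and ein2 air, with a Col-0 air region 286 bp away, whereas NCED6 had no other. The phosphatase gene ABI2, the NAC gene RD26 and the stress-induced gene LTI78 (also RD29A) had folds of 3.40, 3.01 and 3.44. RD26 had regions in all the other sets. Of these 5, the NCED5 region met the Col-0 air minimum.

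Among brassinosteroid and sterol genes, CYP90D1 (AT3G13730), a hydroxylase of brassinosteroid synthesis, had a fold of 4.01 with no other region at the gene. The sterol genes SMT2 and HYD1 had folds of 3.64 and 2.63, and BEE3 and AIF1, for helix-loop-helix proteins of the brassinosteroid response, 3.67 and 3.43. SMT2 also had a Col-0 air region at the gene, and BEE3 an ein2 ethylene region. For jasmonate, CYP94C1 (AT2G27690), which breaks down the active hormone, had a fold of 3.58 with the nearest other region 5728 bp away. The repressor gene JAZ3 and the synthesis genes OPCL1 and ACX5 had regions with folds of 3.06 for JAZ3 and 2.69 for OPCL1, and ACX5 had one with Col-0 air and ein2 air regions at the same gene. JAZ3 likewise had a Col-0 air region at the gene. For auxin, the response factor genes ARF19, ETT and ARF9 had folds of 3.21, 3.10 and 3.25, and LAX3, for an auxin influx carrier, 3.53. All 4 auxin genes met the Col-0 air minimum, and 3 of them had a region of Col-0 air as well.

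Of the lignin pathway, PAL1 and 4CL2, for early enzymes of phenylpropanoid synthesis, had folds of 3.22 and 3.40. The laccase genes IRX12 (also LAC4), LAC2 and LAC12 had 3.52, 2.95 and 3.37, each inside the gene and each with no other region at it. In IRX12 the summit was 1440 bp from the nearest end of the gene. PAL1 had regions in all the other sets too. Of the wall polysaccharide genes, XTH33 (AT1G10550), for a xyloglucan-modifying enzyme, had a fold of 3.93 and a −log10 q of 21.2, and GALS2, for a galactan synthase, had 3.43 and 19.6. The xyloglucan xylosyltransferase genes XT1 and XT2 had folds of 2.98 and 3.28, the xylan synthesis gene PARVUS 2.98 and the expansin gene EXP3 3.03. XT1 had a Col-0 air region 282 bp away, and XT2 had none within 12323 bp.

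Chromatin genes were outside the histone acetylation list but include some close to it. ADA2B (AT4G16420), the adaptor of the acetyltransferase GCN5, had a region inside the gene (chromosome 4, 9265887 to 9266181) with a fold of 3.31 and a −log10 q of 12.9. HD2C (AT5G03740), for a plant-type histone deacetylase, had one 151 bp outside with a fold of 2.78 and a −log10 q of 10.8, close to the lowest value in the set. The remodeller gene CHR11 and the DNA methylation gene DRM3 had folds of 3.24 and 3.48 and met the Col-0 air minimum. The histone methylation genes ATXR5 and WDR5b had 2.89 and 2.85, and the demethylase gene JMJ18 had 3.35. No other region lay at ADA2B, HD2C, CHR11, DRM3, ATXR5 or WDR5b, whereas JMJ18 had regions in all the other sets.

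**Figure D5:**
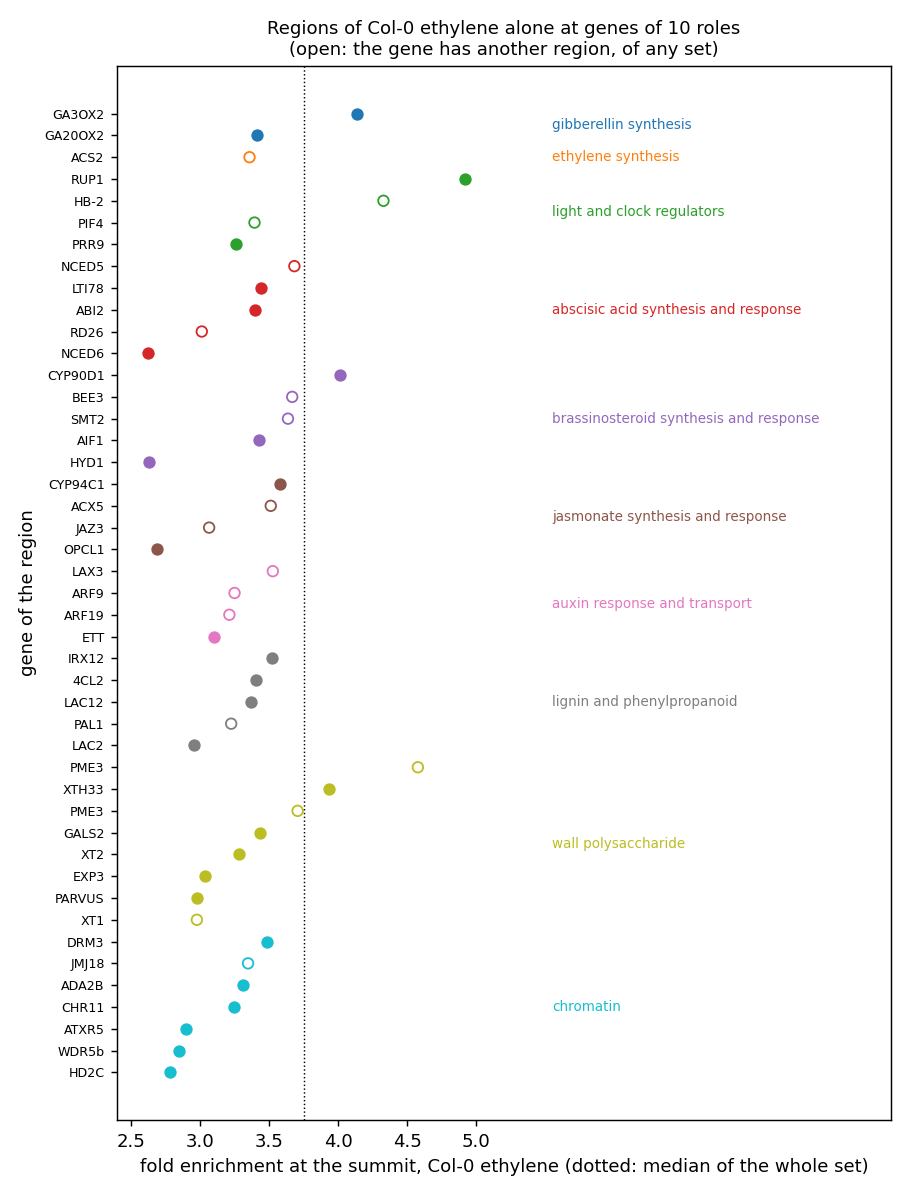
Fold enrichment in Col-0 ethylene (horizontal) of the 45 regions at 44 genes grouped by role after their values were seen, with PME3 shown in 2 rows. Filled points are genes with no other region of any set and open points genes that have one; RUP1 is highest at 4.92, and the dotted line is the median of the whole Col-0 ethylene set, 3.76.

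The regions were spread over the genome. Their share of the Col-0 ethylene regions ranged from 8.54% on chromosome 5 to 11% on chromosome 3. The median gap between consecutive regions of the 500 was 124559 bp, and 25 of 495 such gaps were 5000 bp or less.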

How the data were processed

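Per the submitters' processing notes, the tools were BWA and MACS2 2.1.0.20150603, with TAIR10 as the build. The sources used here do not give how peaks were thresholded and selected. The deposited peak files hold, per the labels, 1 set for both replicates of a condition. Their values are a fold (a ratio), a −log10 q and a peak score, all as deposited by the authors, and a summit offset. They hold no counts, so depth is unknown. Of 6 files, 4 were used, and the 2 that no label names were not used here.

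Regions were found by merging, tested on simulated peaks. Genes came from a RefSeq table of TAIR10.1, whose coordinates are not printed. Summits within 300 bp of a gene edge were 61.6% in place and at most 29% when shifted by 2000 bp or more. Intervals are Wilson or Newcombe 95% intervals (statsmodels 0.14.6, scipy 1.17.1) and cover counting error only. All loci of the lists were found in the table. Genes were named for the top 20 regions by fold, the 5 widest and the 5 farthest from other sets, genes with 2 regions, 3 cases on each side of the rule, and list members. The role groups, UBQ13 and the pseudogenes were picked after seeing values. The regions and lists were chosen with earlier results of these data known. Promoter motifs were planned and not run, as no sequence was used here.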

Additional observations from a re-analysis of the deposited data

How the results depend on the processing

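No paired analysis was possible because each condition has 1 peak set for both replicates, so no replicate could be left out in turn either. Merging over gaps of up to 200 or 500 bp, requiring overlap of 50% of the shorter peak, keeping the left-out stretch, and leaving out either ein2 set gave 445 to 557 regions. With the highest set minimum of −log10 q (13.4) in every set there were 268 regions, 241 of them among the 500, with 399 genes in reach, 68.3% of summits inside a gene and a median width of 253.5 bp. With it in Col-0 ethylene only there were 241 regions, 360 genes, 67.6% inside and 28.2% over 300 bp from every edge. With the 3252 strongest peaks per set, ranked by q in place of the planned p, there were 522 regions, but only 85 of the 500 were among them; 79.1% of summits were inside a gene, 32% over 300 bp from every edge, the median width was 321 bp and 80.1% of genes had no region of another set. With a fold of at least 3 these were 551 regions (341 of the 500), 69.0%, 29%, and 268 bp. Without the Col-0 air set there were 1742 regions, 2544 genes, 72.0% inside, 65.9% within 300 bp of an edge, 288 bp and 78.3%. The share of genes with no region of another set, 68.7% of 738, was 75.1% with gaps of 500 bp merged, 78.7% for regions over 1000 bp from other sets, and 83.7%, 74.6% and 56.7% with gene windows of 0, 500 and 2000 bp, where 449 genes were in reach at 0 bp. The cause was not tested. The share of summits over 300 bp inside genes ranged from 20.4% to 32% over 12 alternatives; it was added after seeing the data. The share in pseudogenes, 3.20%, was 2.42% with neighbours counted once and 2.03% without regions of fold under 2. Regions over 1000 bp from other sets were an alternative added after seeing the data. Without counts, depth limits cannot be stated.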
